A study of Mus musculus with 2 samples.

Results

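Histone lysine demethylases remove methyl groups from lysines of histone tails, and 9 of their genes, Kdm1a, Kdm2a, Kdm2b, Kdm3a, Kdm3b, Kdm4a, Kdm5a, Kdm5b and Kdm6b, are described here by the m6A positions listed in their transcripts. A position belonged to a gene if it lay within an exon of that gene on the same strand (GENCODE annotation of GRCm38), whatever list it came from. By this rule 274 of the 160430 positions in 17 lists fell in the 9 genes. Of these, 238 of 129035 were in a WT list, 192 of 107577 in a KO list and 5 of 3166 in a list of differences between WT and KO. All 274 had a 5-mer of the RRACH class centred on the listed adenosine, none was shared with another gene, and no cut-off on the measured values was used to choose the genes.

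Poly(A) RNA of wild type (WT) mouse 129 embryonic stem cells (mESCs) and of Mettl3 knockout (KO) mESCs was sequenced as native molecules on nanopores, with 1 library per condition and no replicate. In the KO, exons 5 to 7 of Mettl3 were replaced with resistance genes for puromycin and hygromycin on both alleles. A WT and a KO list came from each of 7 tools (ELIGOS, Epinano, m6Anet, MINES, Nanom6A, Tombo and xPore). Nanocompore, DiffErr and DRUMMER each gave 1 list of positions at which WT differed from KO, called comparison lists here. In the study xPore too needs a control sample and models WT and KO together. How its WT and KO lists were drawn from this is not stated, so they may not be separate calls. Tools are counted singly, though some share steps in the study. MINES takes values of Tombo as its input, and Nanom6A starts from Tombo's assignment of signal to bases. m6Anet, xPore and Nanocompore start from that of Nanopolish, so listing by several tools is not independent support. The lists hold positions only, so the reads behind a position are unknown and the 2 libraries are compared by counts of positions. A position in no list may be unmethylated or thinly covered, which cannot be told apart. At least the WT lists of Tombo and Epinano are longer than the sets described at the cut-offs chosen in the study. The WT lists of ELIGOS and xPore and the lists of Nanocompore, DiffErr and DRUMMER are shorter than these sets. Counts and recurrence therefore hold for the lists as deposited. Intervals are 95% intervals for counting error of positions alone. For ratios they take WT and KO positions as separate, though many positions are in both.

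N6-methyladenosine (m6A) is an internal mark of mRNA that a complex with the catalytic subunit METTL3 writes within RRACH, where R is A or G and H is A, C or T. It is known to be most frequent in long internal exons, around stop codons and in 3′ UTRs, and to be scarce near exon junctions. It can hasten the decay of a transcript. KDM1A is a flavin-dependent enzyme that acts on H3K4, while the other 8 carry a JmjC domain that needs iron and 2-oxoglutarate. KDM2A and KDM2B act on H3K36 and bind unmethylated CpG, KDM3A and KDM3B act on H3K9, and KDM4A acts on H3K9 and H3K36. KDM5A and KDM5B remove H3K4 methylation, and KDM6B removes H3K27 methylation.

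The positions that carry most of what follows are shown with 10 bases on either side, 5′ to 3′ on the transcribed strand, with the 5-mer in capitals and T for U (GRCm38). The first 5 are all the positions in a comparison list. The others are the position with most tools in its gene, or the position that most tools listed in KO. For Kdm5b on chromosome 1, plus strand, the windows were as follows.
Kdm5b codon 1285, chr1:134625132-134625152: tgggttctGGACTgttgtcta
Kdm5b codon 1445, chr1:134630580-134630600: caccccaaGGACAtggacagt
Kdm5b 3′ UTR at 37 nt, chr1:134631399-134631419: gtaattcaGGACTccaataaa
Kdm5b 3′ UTR at 80 nt, chr1:134631442-134631462: aagctacaGGACTggggtcga
Kdm5b 3′ UTR at 666 nt, chr1:134632028-134632048: ttaggaagAGACTgcgctgta
Kdm5b codon 189, most KO tools, chr1:134588927-134588947: ctgtctggAGACAgtctgagg
Kdm1a 3′ UTR at 113 nt, chr4:136550727-136550747, minus strand: agctactgGGACTcctagttt
Kdm3a 3′ UTR at 462 nt, chr6:71589165-71589185, minus strand: attgcataGGACTggcattat
Kdm2b 3′ UTR at 63 nt, chr5:122871645-122871665, minus strand: agggtgaaAGACTgcaaaatc
Kdm2a 3′ UTR at 1549 nt, chr19:4317543-4317563, minus strand: tcaagaggGGACAgagcccgg
Kdm5a 3′ UTR at 1860 nt, chr6:120441041-120441061, plus strand: ttcttacaAAACCctttatcc
Kdm4a 3′ UTR at 983 nt, chr4:118137239-118137259, minus strand: gttaggatGAACTggggccac
Kdm6b 3′ UTR at 462 nt, KO only, chr11:69399356-69399376, minus strand: ctacccctGGACCtccttttt
Distances in the 3′ UTR are counted along the transcript from the first base of the stop codon.

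The KO label was checked at Mettl3 itself. The replaced exons held 2 positions in the WT lists and 0 in the KO lists, the exons upstream of them 7 and 0, and the exons downstream 4 and 5. Of 10 embryonic stem cell markers 9 had listed positions, with 214 in WT and 172 in KO, and Lin28a had none. Of 6 fibroblast feeder markers, Fn1 (76 in WT, 56 in KO), Thy1 (3 and 1) and Col1a1 (0 and 3) had positions, and of 8 markers of endoderm, mesoderm and neural cells only Sox17 did, with 12 in WT and 0 in KO.

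The 9 genes split into 5 with many listed positions and 4 with few. Kdm3a had 66 in WT and 47 in KO, and Kdm5b had 62 and 59. Kdm1a had 35 and 32, Kdm3b 27 and 32, and Kdm2b 25 and 9. Kdm2a followed with 11 in WT and 4 in KO, Kdm5a with 9 and 5, and Kdm4a with 3 and 3, and Kdm6b had 0 in WT and 1 in KO. Per 100 exonic RRACH positions, the WT lists named 50 in Kdm1a, 41.2 in Kdm3a, 26.3 in Kdm5b, 20.2 in Kdm2b and 15 in Kdm3b, against 5.42 in Kdm2a, 4.41 in Kdm5a and 3.85 in Kdm4a. The 4 genes with few listed positions had between 78 (Kdm4a) and 204 (Kdm5a) exonic RRACH positions, and the other 5 between 70 (Kdm1a) and 236 (Kdm5b).

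**Figure D1:**
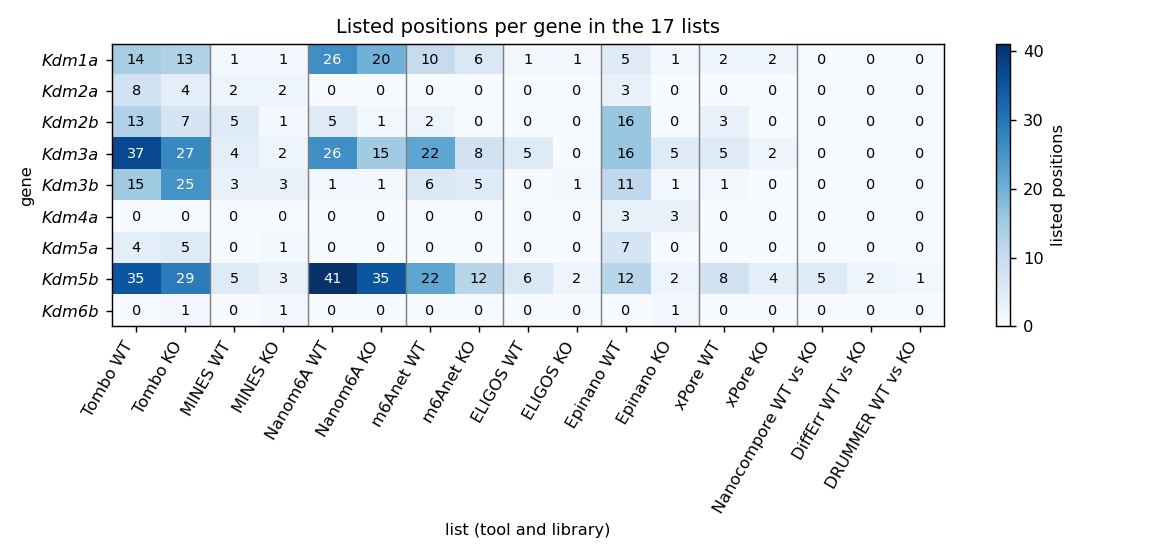
Number of listed positions in each of the 9 genes (rows) in each of the 17 lists (columns, tool and library); the colour scale gives the same number as the digits. Kdm3a and Kdm5b have the fullest rows, Kdm4a appears only in the Epinano lists with 3 positions in each library, and Kdm5b is the only row with positions in the 3 comparison lists.

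Over the 9 genes together, KO had 0.807 times as many listed positions as WT (interval 0.664 to 0.98), close to 0.834 for all positions of the series (0.827 to 0.84). The tools differed. Epinano listed 73 positions in WT and 13 in KO, a ratio of 0.178 (0.0905 to 0.324) below its 0.339 over the series. For the other tools the interval of the ratio held the series value. ELIGOS listed 12 and 4 (0.333, series 0.259), xPore 19 and 8 (0.421, series 0.446), and m6Anet 62 and 31 (0.5, series 0.58). MINES listed 20 and 14 (0.7, series 0.703), Nanom6A 99 and 72 (0.727, series 0.831), and Tombo 126 and 111 (0.881, series 0.905). Without Tombo the ratio for the 9 genes was 0.65 (0.511 to 0.825) beside 0.67 for the series, and without Tombo and Nanom6A it was 0.492 (0.36 to 0.668) beside 0.549.

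Of the 238 WT positions, 147 (61.8%, 55.5 to 67.7) were also in the KO list of a tool that listed them in WT, against 55.3% of all WT positions. Nanom6A repeated 66 of 99 (66.7%, series 65.4%) and Tombo 78 of 126 (61.9%, series 59.7%). m6Anet repeated 25 of 62 (40.3%, series 34.4%), MINES 7 of 20 (35%, series 40.2%) and xPore 5 of 19 (26.3%, series 24.9%). ELIGOS repeated 2 of 12 (16.7%, series 11.5%) and Epinano 9 of 73 (12.3%, series 16.5%). For each tool the share in the demethylase genes had an interval that held the series value, and for the merged lists the interval lay just above it. Counting the KO list of any tool, 156 of 238 recurred (65.5%, series 59%). The shares of single tools rose by this count, to 75% for ELIGOS (series 67.6%), 47.9% for Epinano (43.7%), 73.7% for xPore (67.6%), 75.8% for m6Anet (64.1%) and 60% for MINES (68.9%), and less for Tombo (73.8%, series 65.9%) and Nanom6A (82.8%, series 80.7%).

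Genes differed in the share that recurred in KO under the same tool. It was 80.6% in Kdm5b (50 of 62, 69.1 to 88.6), 80% in Kdm1a (28 of 35, 64.1 to 90) and 65.2% in Kdm3a (43 of 66, 53.1 to 75.5). It was 44.4% in Kdm3b (12 of 27, 27.6 to 62.7) and 32% in Kdm2b (8 of 25, 17.2 to 51.6). In Kdm5a 3 of 9 recurred (33.3%, 12.1 to 64.6), in Kdm2a 2 of 11 (18.2%, 5.14 to 47.7) and in Kdm4a 1 of 3. The series share was 55.3%, and the intervals of Kdm3b, Kdm2b, Kdm5a and Kdm2a overlapped one another.

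The ratio of KO to WT positions was 0.36 in Kdm2b (0.148 to 0.797), 0.712 in Kdm3a (0.479 to 1.05), 0.914 in Kdm1a (0.548 to 1.52), 0.952 in Kdm5b (0.655 to 1.38) and 1.19 in Kdm3b (0.688 to 2.06). Neighbours in this order had intervals that overlapped widely, and even those of Kdm2b and Kdm3b overlapped. These intervals take WT and KO positions as separate, though many positions were in both. Positions in WT alone and in KO alone numbered 17 and 1 in Kdm2b, 21 and 2 in Kdm3a, and 6 and 3 in Kdm1a. In Kdm5b they numbered 10 and 7, and in Kdm3b 11 and 16. Of 2160 genes with at least 20 WT positions, the median ratio was 0.792 and the quartiles were 0.629 and 0.938. Kdm2b was low among them, with 6.48% of genes at or below its ratio, and Kdm3b was high, with 3.52% at or above it; 12.8% of the genes had more positions in KO than in WT.

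**Figure D2:**
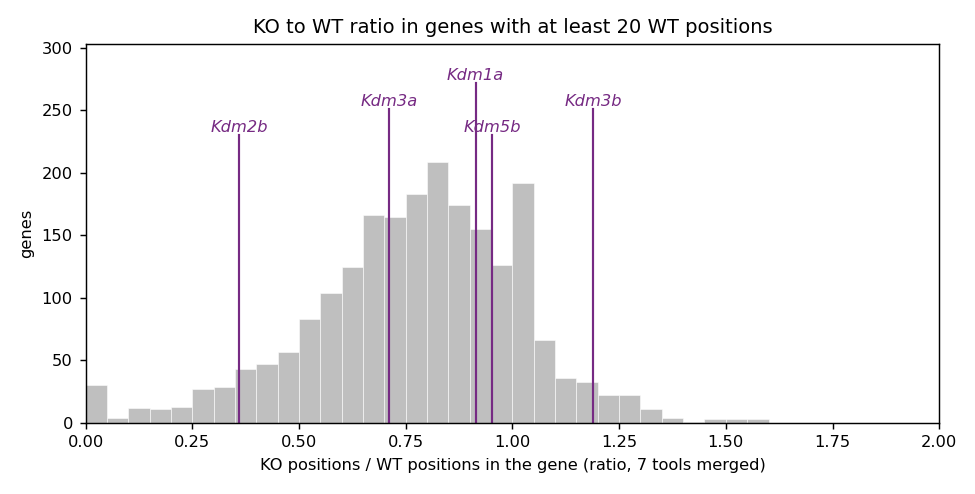
Histogram of the ratio of KO to WT positions over the 2160 genes with at least 20 WT positions (x axis, ratio, 7 tools merged; y axis, number of genes), with vertical lines at the 5 demethylase genes that reach this number; line heights have no meaning. Kdm2b lies on the left flank at 0.36, Kdm3a, Kdm1a and Kdm5b lie in the body at 0.712, 0.914 and 0.952, and Kdm3b lies on the right flank at 1.19.

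Kdm1a, which encodes the H3K4 demethylase LSD1, had the densest listing. It lies on chromosome 4 (136550540 to 136602723, minus strand), and its coding transcript has 20 exons and 3028 nt. Listed positions ran from 24 to 2983 nt from the 3′ end, and 38 of the 46 RRACH positions in that span (82.6%) were in some list. Nanom6A gave 26 positions in WT and 20 in KO, Tombo 14 and 13, and m6Anet 10 and 6. The position with most tools was the GGACT at 113 nt in the 3′ UTR, listed in WT by Tombo, Nanom6A, m6Anet, Epinano and xPore and in KO by Tombo and Nanom6A. An AGACT at codon 418 was listed by 4 tools in WT and 3 in KO. No position of Kdm1a that at least 2 tools listed in WT was missing from every KO list.

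Kdm2a and Kdm2b encode the related H3K36 demethylases and differed in where positions were listed. Kdm2b lies on chromosome 5 (122870665 to 122989823, minus strand), and 15 of its 25 WT positions were in the coding sequence (CDS) and 10 in the 3′ UTR. The last exon carried its 4 positions with at least 4 tools, at 63, 114, 122 and 240 nt in the 3′ UTR. The AGACT at 63 nt was listed by Tombo, Nanom6A, Epinano and xPore, the GGACA at 122 nt by Tombo, MINES, Nanom6A and xPore, and the GGACC at 240 nt by Tombo, MINES, Nanom6A and Epinano, all in WT and in no KO list. The AGACT at 114 nt had the same 4 tools as that at 63 nt and was also in the KO list of Tombo. In all, 7 of the 25 WT positions of Kdm2b were listed by at least 2 tools and absent from all KO lists, the most of the 9 genes. Epinano contributed 16 positions in WT and 0 in KO, and the ratio without Epinano was not computed. Without Tombo the gene had 20 WT positions and 2 KO positions, a ratio of 0.1 (0.0113 to 0.412), and without Tombo and Nanom6A 19 and 1, a ratio of 0.0526. With 1 site counted per line the ratio was 0.188.

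Kdm2a, on chromosome 19 (4314419 to 4398285, minus strand), had all of its 13 listed positions in a 3′ UTR of 4681 nt, between 785 and 2958 nt from the stop codon. None of its 51 RRACH positions in the CDS was listed, and neither were the 30 RRACH positions nearest to the 3′ end. Tombo listed 8 in WT and 4 in KO, MINES 2 and 2, and Epinano 3 and 0, while the other tools listed none. A GGACA at 1549 nt was listed by Tombo and MINES in WT and in no KO list. Another GGACA at 2102 nt was listed by the same 2 tools in both libraries. MINES works on values of Tombo, so the 2 are not separate support. Position 4316688, at 2414 nt, went from Tombo alone in WT to Tombo and MINES in KO.

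Kdm3a and Kdm3b encode H3K9 demethylases, and KO had fewer positions than WT in Kdm3a but more in Kdm3b, where the excess was lost without Tombo or with 1 site counted per line. Kdm3a, on chromosome 6 (71588972 to 71632990, minus strand), had 58 of its 66 WT positions in the CDS. A GGACT at 462 nt in the 3′ UTR was listed by all 7 tools in WT and by m6Anet and Epinano in KO. A second GGACT at 70 nt was listed by 6 tools in WT and by m6Anet in KO. Exon 10 is 512 nt long and held 14 WT and 8 KO positions. Within it, 5 positions had at least 3 tools in WT, at codons 380, 423, 430, 436 and 506, and 2 of them were also in a KO list, that at codon 423 by xPore and that at codon 506 by Tombo. Of the 6 Kdm3a positions with at least 2 WT tools and no KO list, exon 10 held 5. ELIGOS listed 5 Kdm3a positions in WT and 0 in KO, and a GGACT at codon 1049 was listed by Tombo, MINES and m6Anet in both libraries.

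Kdm3b, on chromosome 18 (34777047 to 34838660, plus strand), had 16 positions in both libraries, 11 in WT alone and 16 in KO alone. Tombo accounted for 14 of the 16 in KO alone, and over the 9 genes for 24 of 36. Tombo listed 15 positions in WT and 25 in KO, while Epinano listed 11 and 1. Without Tombo the ratio turned from 1.19 to 0.526 (0.219 to 1.19), and without Tombo and Nanom6A it was 0.474. With 1 site counted per line it was 0.973. The position with most WT tools and no KO list was at codon 591 in exon 8, which is 1249 nt long, and was listed by Tombo, MINES and Epinano. The position at codon 293 was in 1 WT list, that of Epinano, and in the KO lists of Tombo, MINES and Epinano. A coding transcript of 7 exons was named for 15 Kdm3b positions listed on no other transcript, of which 6 were in WT and 13 in KO (interval of the ratio 0.768 to 6.95). The other 28 positions numbered 21 in WT and 19 in KO (ratio 0.905, 0.46 to 1.77), and 3 positions were off the main transcript of 24 exons.

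Kdm4a, on chromosome 4 (118136957 to 118180043, minus strand), encodes a demethylase of H3K9 and H3K36 and was listed by Epinano alone. Its 3 WT positions were at 887, 983 and 1230 nt in the 3′ UTR and its 3 KO positions at 887, 1098 and 1213 nt, so that only that at 887 nt was in both libraries. None of its 41 RRACH positions in the CDS was listed.

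Kdm5a and Kdm5b encode paralogous H3K4 demethylases, with 9 and 62 WT positions. Kdm5a, on chromosome 6 (120364124 to 120444574, plus strand), has a 3′ UTR of 5381 nt, and all of its 11 listed positions lay between 1349 and 3038 nt within it. None of its 81 RRACH positions in the CDS and none of the 35 nearest to the 3′ end was listed. Epinano gave 7 positions in WT and 0 in KO, and Tombo 4 and 5. The AAACC at 1860 nt was listed by Tombo and Epinano in WT and by Tombo in KO, and the GGACT at 1539 nt by Tombo and Epinano in WT and by Tombo and MINES in KO. Without Tombo the ratio of KO to WT fell from 0.556 (0.146 to 1.85) to 0.143.

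Kdm5b, on chromosome 1 (134560171 to 134635285, plus strand), was the only one of the 9 with positions in the comparison lists. These were 5 of the 238 WT positions (2.1%, 0.901 to 4.82), against 2.45% over the series, 2 in at least 2 comparison lists (series 1.12%) and 1 in all 3 (series 0.402%). Among genes with at least 20 WT positions, 32.1% had a position in a comparison list, and so did 1 of the 5 such demethylase genes. Nanocompore listed all 5, DiffErr 2 and DRUMMER 1, and all 5 were also in WT lists.

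The GGACT at codon 1285, in exon 23 and at -778 nt from the stop codon, had the widest support of the 274, with 8 tools. Tombo, Nanom6A, m6Anet, ELIGOS and xPore listed it in WT, all 3 comparison tools listed it, and in KO it was still in the lists of Nanom6A and m6Anet. The GGACA at codon 1445 in exon 26 had the same 5 WT tools with Nanocompore and DiffErr, and no KO list. A second GGACA began 6 nt downstream, at codon 1447. It was listed by 6 tools in WT, MINES and Epinano among them, and by Tombo and xPore in KO, but by no comparison tool. The GGACT at 37 nt in the 3′ UTR had 5 WT tools and Nanocompore, and that at 80 nt had 4 WT tools and Nanocompore, and both were in the KO lists of Tombo, Nanom6A and m6Anet. The AGACT at 666 nt had Tombo, Nanom6A and m6Anet in WT and Nanocompore, and no KO list. So 2 of the 5 were absent from KO and the other 3 were in 2 or 3 KO lists.

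Support in WT did not go with a place in a comparison list throughout Kdm5b. An AGACT at codon 943 was listed by all 7 tools in WT, by Tombo in KO and by none of Nanocompore, DiffErr and DRUMMER. xPore listed it in WT and not in KO. The AGACA at codon 189, 10 nt from an exon junction, was listed by Epinano, m6Anet, Nanom6A and Tombo in either library, the only one of the 274 in 4 KO lists. Between the listed position nearest to the 3′ end and that farthest from it, 69 of 94 RRACH positions were listed (73.4%), but none of the 42 that lay nearer to the 3′ end. The last listed position was 1320 nt into a 3′ UTR of 3911 nt, and 42 of the 64 RRACH positions of that UTR lay beyond it.

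Kdm6b, on chromosome 11 (69398508 to 69413675, minus strand), encodes the H3K27 demethylase JMJD3. None of its 85 exonic RRACH positions was in a WT list. A single GGACC at 462 nt in the 3′ UTR was listed in KO by Tombo, MINES and Epinano.

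**Figure D3:**
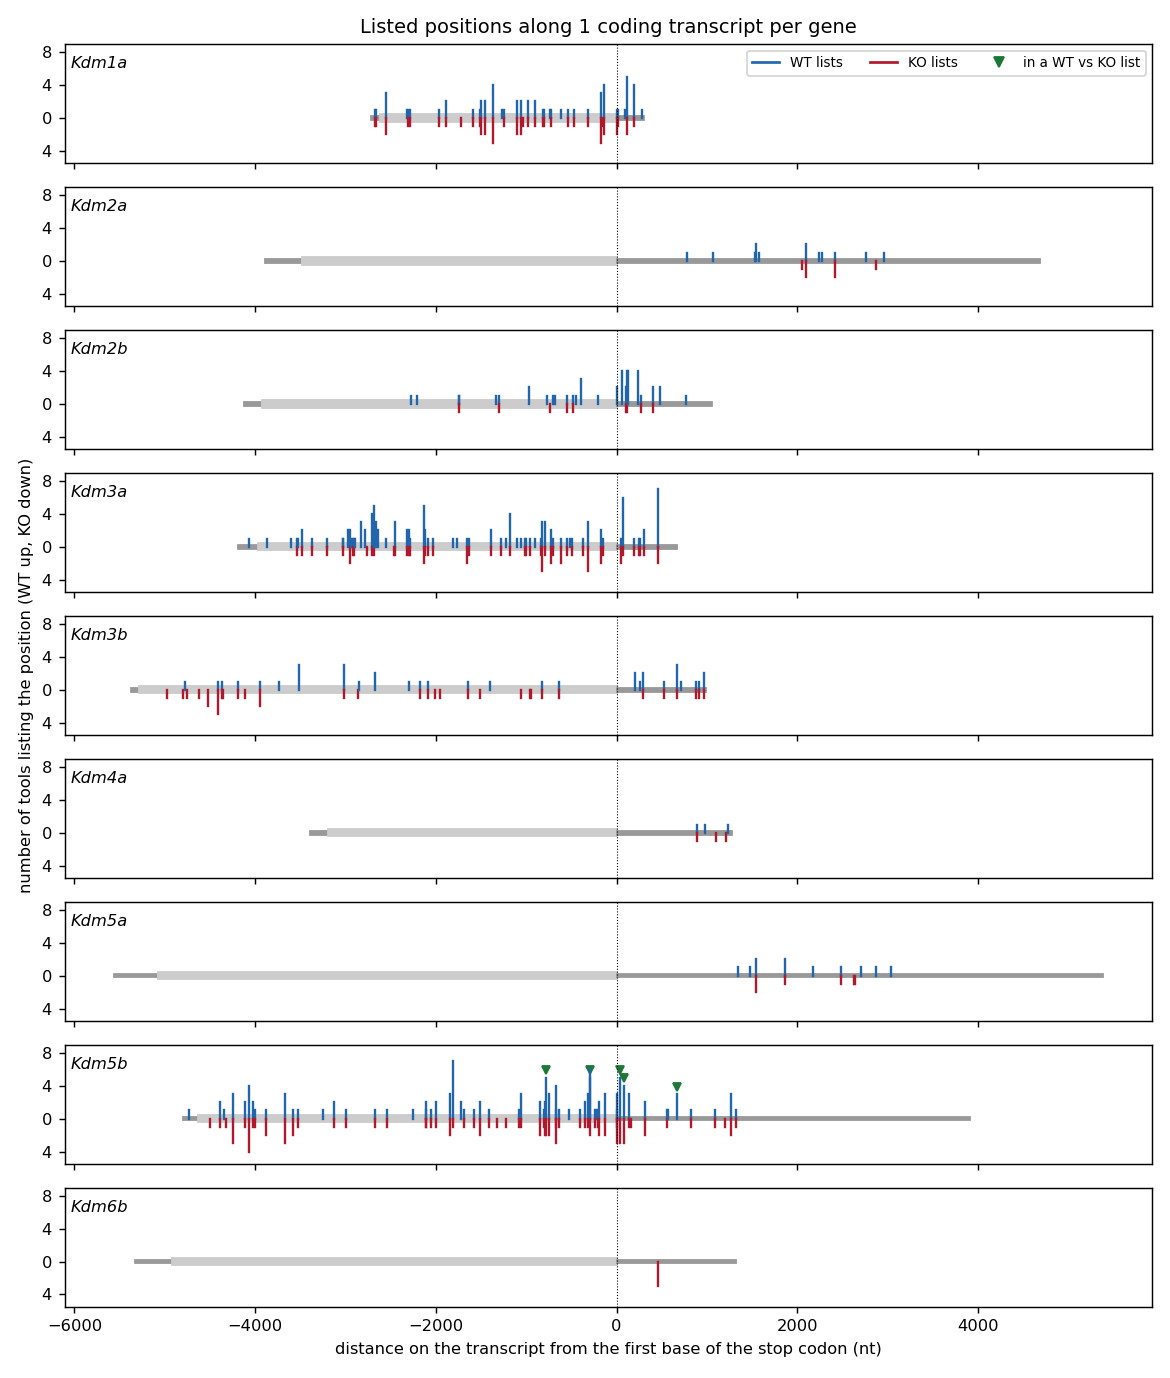
Listed positions along 1 coding transcript per gene, with the first base of the stop codon at 0 (x axis, nt on the spliced transcript; thick bar CDS, thin bars UTRs). Blue lines rise by the number of tools that list a position in WT, red lines fall by the number in KO, and green triangles mark the 5 Kdm5b positions in a comparison list; Kdm1a, Kdm3a, Kdm3b and Kdm5b are listed along their CDS, whereas Kdm2a, Kdm4a and Kdm5a are listed in the 3′ UTR alone.

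Most positions rested on a single tool. With a tool counted where its WT or comparison list held the position, 148 of 238 (62.2%, 55.9 to 68.1) had 1 tool, against 65.3% of the series. Tombo alone gave 58 of these, Nanom6A 39, Epinano 34, m6Anet 16 and MINES 1. At least 4 tools listed 23 (9.66%, 6.53 to 14.1), against 5.5% of the series, and at least 6 tools listed 7 (2.94%, 1.43 to 5.95), against 1.98%. Of the 23, Kdm5b held 9, Kdm3a 6, and Kdm1a and Kdm2b 4 each. Without Tombo 11 were left. Of the 148 single-tool positions 86 were also in some KO list (58.1%, 50.1 to 65.8, series 52.8%), and of the 7 with at least 6 tools 6 were (85.7%, 48.7 to 97.4, series 72.8%).

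In all, 82 of the 238 WT positions were in no KO list of any tool (34.5%, 28.7 to 40.7, series 41%), most of them listed by a single tool. At least 2 tools listed 20 of the 238 in WT with no KO list of any tool (8.4%, 5.51 to 12.6), against 10.2% of the series, and at least 3 tools listed 10 (4.2%, 2.3 to 7.56), against 3.25%. Kdm2b held 7 of the 20, Kdm3a 6, Kdm3b and Kdm5b 3 each and Kdm2a 1, and Kdm1a, Kdm4a, Kdm5a and Kdm6b held none. Of the 10, Kdm2b held 4, Kdm3a 3, Kdm5b 2 and Kdm3b 1.

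In the KO library 145 of the 192 positions were listed by 1 tool, 34 by 2, 12 by 3 and 1 by 4. The 13 with at least 3 tools were 6.77% of KO positions (4 to 11.2), against 4.3% of the series. Positions in KO lists and in no WT list numbered 36 (18.8%, 13.9 to 24.9), against 29.2% of the series. Kdm3b held 16 of these and Kdm5b 7.

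Of the 19 xPore positions in WT, 14 were not in its KO list (73.7%, series 75.1%), 5 in Kdm5b, 4 in Kdm3a, 3 in Kdm2b and 1 each in Kdm1a and Kdm3b. Of these, 3 were also in a comparison list (21.4%, 7.57 to 47.6, series 35.4%), and 5 were in no KO list of any tool (35.7%, 16.3 to 61.2, series 43.1%).

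On 1 coding transcript per gene, 237 WT and 190 KO positions could be placed. In WT 165 (69.6%, 63.5 to 75.1) were in the CDS and 68 (28.7%, 23.3 to 34.8) in the 3′ UTR, while over all coding genes the shares were 55.1% and 41.7%. Of all RRACH positions on the same 9 transcripts, 64% were in the CDS and 32.1% in the 3′ UTR. Within 200 nt of the stop codon lay 25 (10.5%, 7.25 to 15.1), against 7.11% of the RRACH positions of these transcripts, 21.9% of WT positions and 12.5% of RRACH positions over all coding genes. In KO it was 22 of 190 (11.6%, 7.77 to 16.9). With at least 4 tools it was 9 of 23 (39.1%, 22.2 to 59.2), against 44.3% of such positions over all coding genes.

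The distance to the nearest exon junction differed with support. Of 156 positions in both libraries, 58 (37.2%, 30 to 45) were at least 100 nt from a junction, and of 81 in WT alone 42 (51.9%, 41.1 to 62.4), against 50.3% and 60.8% over all coding genes. Among the 20 with at least 2 WT tools and no KO list the share was 80% (58.4 to 91.9, all coding genes 77.8%). Among the 23 with at least 4 tools it was 78.3% (58.1 to 90.3, all coding genes 86.3%). Most of these 23 were also among the 156 in both libraries, so the sets overlap. Of RRACH positions it was 45.6% on the 9 transcripts and 57.2% over all coding genes. Internal exons of at least 400 nt held 8 of the 20 (40%, 21.9 to 61.3), against 12.7% of the RRACH positions of the 9 transcripts. Over all coding genes these 2 shares were 10% and 7.3%. Exon 10 of Kdm3a held 5 of the 8, exon 8 of Kdm3b 2 and exon 19 of Kdm2b 1.

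**Figure D4:**
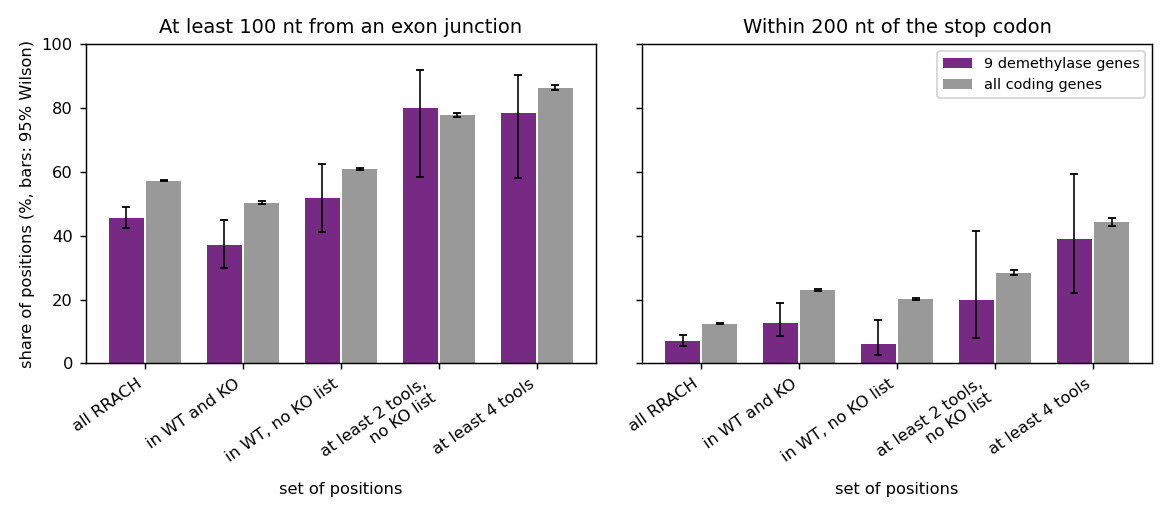
Share of positions (y axis, percent, with 95% Wilson intervals) that lie at least 100 nt from an exon junction (left) or within 200 nt of the stop codon (right), for 5 sets of positions (x axis) in the 9 demethylase genes (purple) and in all coding genes (grey). In the 9 genes, positions with at least 2 WT tools and no KO list or with at least 4 tools lie far from junctions in 80% and 78.3%. Of those in both libraries 37.2% do. The sets overlap, since most positions with at least 4 tools are also in both libraries.

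The 12 RRACH 5-mers were counted on the listed strand. Per 100 exonic RRACH positions of the same 5-mer, WT lists named most for GGACC (27.6) and GGACT (24.8) and fewest for AAACC (10.1). The 4 that MINES is built for (AGACT and all those that begin with GGAC) made up 99 of 238 WT positions (41.6%, 35.5 to 47.9). Over the series they made up 43.2% of positions in a WT or comparison list. In KO they were 42.7% of positions (series 39%), and they were 33.1% of the RRACH positions of the 9 genes. They made up 21 of the 23 positions with at least 4 tools (91.3%, 73.2 to 97.6, series 89.9%), and all 5 in the comparison lists. Of the 20 positions with at least 2 WT tools and no KO list they were 14 (70%, 48.1 to 85.5, series 78%), and GGACT was 1 of these 20 (5%), against 28.7% of such positions in the series. GAACC had the lowest ratio of KO to WT, with 10 positions in WT and 2 in KO (0.2, series 0.827). AGACA had more in KO (26) than in WT (23), a ratio of 1.13 beside 0.969 over the series. These 2 are the extremes of the 12 5-mers, named after the values were seen. No interval was computed for them, and that of GAACC rests on few positions.

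Other genes of histone methylation were read in the same way. Of 18 further lysine demethylases and JmjC genes, 14 had listed positions, 203 in WT and 170 in KO (ratio 0.837, 0.679 to 1.03), and Kdm4d, Uty, Kdm7a and Hr had none. Comparison lists named 3 positions in Jmjd6 and 2 in Riox1. Of 10 genes for partners of KDM1A, 9 had positions, 170 in WT and 149 in KO (0.876, 0.699 to 1.1), with 4 comparison positions in Rcor2, a CoREST subunit, and 1 in the deacetylase gene Hdac2, and none of any kind in Rcor3. Of 12 genes for H3K4 methyltransferases and their shared subunits, 10 had positions, 179 and 153 (0.855, 0.684 to 1.07), with 1 comparison position in Wdr5, and Kmt2a and Kmt2d had none. The 5 H3K36 methyltransferase genes had 84 and 69 (0.821, 0.589 to 1.14) and no comparison position.

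The 4 genes for partners of KDM2B went the other way, with 31 positions in WT and 53 in KO (ratio 1.71, 1.08 to 2.76). Skp1a had 28 and 22 and Pcgf1 3 and 3, whereas Bcor and Bcorl1, which encode subunits of the same Polycomb complex, had 0 in WT and 14 in KO each. Listings in 1 library alone occurred elsewhere in these sets too, in both directions: Phf21a had 0 and 12, Phf8 11 and 0, and Nsd2 24 and 0. These genes were named after their values were seen, and how many reads either library had on them is unknown.

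Across the 17 lists, the genes whose positions per RRACH position were most like those of the 9 genes pooled were Srp72 (cosine 0.989), Ctbp2 (0.988) and Map2k2 (0.988), out of 3058 genes with at least 20 listed positions, whose median cosine was 0.840. Of these 3, Ctbp2 had 3 comparison positions and the others 0.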

How the data were processed

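Per the labels and methods, the authors basecalled nanopore direct RNA reads of 1 WT and 1 KO library, aligned them with minimap2 to the GENCODE transcriptome of mm10 (GRCm38), ran 10 tools and converted transcript to genome positions. The deposited lists give chromosome, position, strand and transcript or gene, with no score, rate or coverage, and do not name the cut-off behind them. In the methods each tool's cut-off was that with the best summed F1 score against 2 other m6A maps (miCLIP and miCLIP2), over RRACH sites with a minimum of reads that was higher for m6Anet. The deposited WT lists of Tombo and Epinano hold 75219 and 44559 unique positions, more than any WT set described at that cut-off. At least these 2 were thus not made as described. The WT lists of ELIGOS (5971) and xPore (5368) have fewer unique positions than any WT set so described. So do the lists of Nanocompore (2107), DiffErr (1752) and DRUMMER (1267). What was applied to the lists is not stated with them, and counts and recurrence hold for the lists as deposited. The depth per position is unknown.

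Each unique chromosome, position and strand was counted once per list with Python 3.11.15 (numpy 2.4.6, scipy 1.17.1, matplotlib 3.10.9) and placed with GENCODE M21, in which 99.95% of 16356 listed transcript identifiers were found; all 625 lines of the 9 genes matched the listed transcript position. Positions were placed on the coding transcript whose exons held most of a gene's listed positions, whatever transcript the lists named, and 5-mers were read from the genome. Shares have 95% Wilson intervals and ratios exact binomial ones, for counting error only. The latter take WT and KO positions as separate, though 156 of the 274 positions were in both a WT and a KO list. With 1 library per condition no test between conditions was made. Placement was checked on a made-up transcript on either strand. The coverage of the Wilson interval and the overlap of lists were checked on simulated data.

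The genes, gene sets and measures were chosen with earlier results of these data known. Positions named were, per gene, that with most tools in WT or comparison (ties by fewest KO lists), that in all 3 comparison lists, and that with most KO tools where at least 3 listed it; the other comparison positions, those with at least 4 tools, those with at least 3 WT tools and no KO list, and other single positions were added after the values were seen. Of the other gene sets, the 2 genes with most comparison positions and the genes with none listed were named. Alternatives were assignment by the listed transcript or gene, 1 site per line, and leaving out Tombo, Tombo and Nanom6A, or MINES. Others were other comparison thresholds, the KO list of any tool, and stop codon windows of 100 and 400 nt. Matching or joining within 5 bp, RRACH 5-mers only and the longest coding transcript were also used. So were leaving out positions in exons of several genes and, for 5-mers, keeping positions in no KO list.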

Additional observations from a re-analysis of the deposited data

How the results depend on the processing

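No paired analysis was possible because each condition had 1 library. Counting 1 site per line in place of unique positions gave 498 WT, 290 KO and 8 comparison lines and a ratio of KO to WT of 0.582 over the 9 genes. That ratio was 0.65 without Tombo and 0.492 without Tombo and Nanom6A. For single genes it became 0.1 and 0.0526 in Kdm2b, 0.526 and 0.474 in Kdm3b and 0.143 under both in Kdm5a, and 0.647 in Kdm5b without Tombo and Nanom6A. Comparison positions numbered 2 with at least 2 tools, 1 with all 3 and 16 when xPore positions in WT and not in its KO list were added. Positions with at least 4 tools numbered 11 without Tombo. The share around the stop codon was 4.64% for a window of 100 nt and 19% for 400 nt. With the KO list of any tool, recurrence rose in each of the 7 tools, to between 47.9% (Epinano) and 82.8% (Nanom6A). With 1 site per line the ratio was 0.188 in Kdm2b, 0.973 in Kdm3b, 0.5 in Kdm3a and 0.674 in Kdm5b, and without Tombo and Nanom6A it was 0.484 in Kdm3a. Each of these 5 lay within the wide interval of the main ratio. The cause was not tested. The lists carry no depth, so neither the lack of a listing nor a gene listed in 1 library alone can be set against the number of reads.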
